A study of Mus musculus with 14 samples.

Results

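The mRNA levels of 10 receptors of the TNF receptor superfamily were followed in activated CD4+ T cells with fewer functional *Hdac1* and *Hdac2* alleles. The genes were *Tnfrsf4* (OX40), *Tnfrsf9* (4-1BB), *Tnfrsf18* (GITR), *Tnfrsf8* (CD30), *Tnfrsf1b* (TNFR2), *Tnfrsf25* (DR3), *Tnfrsf14* (HVEM), *Tnfrsf26*, *Cd27*, and *Fas*, chosen by name as costimulatory or death receptors of T cells, and all 10 had a value in every sample, among 30883 genes with a value in all 14 samples. Naive CD4+ T cells of C57BL/6 mice were activated for 3 days with antibodies to CD3 and CD28, and RNA-Seq libraries were made. The study gives added IL-2 and sorting of viable cells for the first experiment below, and for the second it refers to earlier work. In the first experiment, 4 WT samples were compared with 4 HDAC1cKO-HDAC2HET samples (HDAC1f/f HDAC2f/+ CD4-cre+), in which both *Hdac1* alleles and 1 *Hdac2* allele are deleted by Cre driven from the *Cd4* gene, and none of these cells were restimulated. In the second, 3 WT samples were compared with 3 HDAC1cKO samples (HDAC1f/f CD4-cre+), in which both *Hdac1* alleles are deleted and *Hdac2* is intact, and these cells were restimulated with anti-CD3 for 12 hours after the 3 days. The study gave the age of its mice only as a range over all experiments, and *Cd4*-driven Cre acts from the thymus onwards.

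Members of this family are trimeric receptors that bind trimeric ligands on other immune cells and sometimes on T cells themselves. Most of the costimulatory members recruit TRAF adaptors and activate NF-κB, which supports survival and effector function after T cell receptor signaling, whereas *Fas* and *Tnfrsf25* carry a cytoplasmic death domain. OX40, 4-1BB, GITR, and CD30 are induced by activation, whereas CD27 and HVEM are already present on naive T cells. TNFR2 binds TNF and lymphotoxin-α, and the protein encoded by *Tnfrsf26* is a mouse receptor related to the decoy receptors for TRAIL.

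Of the 10 genes, 7 lie on chromosome 4, between positions 145213463 and 156028895 of the mouse genome build mm10 (GENCODE annotation). *Tnfrsf1b* (chr4:145213463-145246870) and *Tnfrsf8* (chr4:145267137-145315164) are neighbours on the minus strand separated by 20.3 kb, and *Tnfrsf4* (chr4:156013843-156016612) and *Tnfrsf18* (chr4:156026164-156028895) are neighbours on the plus strand separated by 9.55 kb. *Tnfrsf9* (chr4:150914562-150946102), *Tnfrsf25* (chr4:152115934-152120119), and *Tnfrsf14* (chr4:154921933-154928563) lie between these pairs. *Tnfrsf26* is on chromosome 7 (chr7:143607659-143628722), *Cd27* on chromosome 6 (chr6:125232622-125237010), and *Fas* on chromosome 19 (chr19:34290666-34327772). *Hdac1* itself is also on chromosome 4, 15.7 Mb before the nearest of the 7 and 26.5 Mb before the farthest. Of 130 other genes tested in the interval that holds the 7 receptors, 53 (40.8%) were higher and 22 (16.9%) were lower in HDAC1cKO-HDAC2HET cells (limma, adjusted p of at most 0.05), against 24.2% higher and 27.6% lower of all genes tested. In HDAC1cKO cells none of 143 such genes passed with limma. At an unadjusted p under 0.05, 14 were higher and 4 lower, against 6.58% and 7.77% of all genes tested.

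Sequences before the transcription start are shown for 4 receptors that changed in HDAC1cKO-HDAC2HET cells, a neighbouring pair that fell and a pair that rose. They are the 250 bases upstream of the RefSeq start, read 5′ to 3′ along the gene in the build GRCm38.p6, at chr4:145315165-145315414 on the minus strand for *Tnfrsf8*, chr4:145246871-145247120 on the minus strand for *Tnfrsf1b*, chr4:152115684-152115933 on the plus strand for *Tnfrsf25*, and chr19:34290409-34290658 on the plus strand for *Fas*. Capitals mark letters that match, on either strand, the NF-κB consensus, AP-1 (TGANTCA), RUNX (TGTGGT), GAS (TTCNNNGAA, the STAT element), or the GC box (GGGCGG).
Tnfrsf8: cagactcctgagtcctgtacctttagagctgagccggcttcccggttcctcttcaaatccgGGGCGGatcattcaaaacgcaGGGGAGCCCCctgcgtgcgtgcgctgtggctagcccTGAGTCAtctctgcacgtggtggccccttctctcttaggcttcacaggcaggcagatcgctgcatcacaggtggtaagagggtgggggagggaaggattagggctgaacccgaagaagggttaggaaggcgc
Tnfrsf1b: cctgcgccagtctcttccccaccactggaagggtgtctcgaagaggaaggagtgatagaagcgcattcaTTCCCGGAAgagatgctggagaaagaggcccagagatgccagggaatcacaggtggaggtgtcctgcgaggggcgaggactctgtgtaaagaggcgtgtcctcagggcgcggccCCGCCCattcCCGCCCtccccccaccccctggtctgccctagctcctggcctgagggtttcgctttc
Tnfrsf25: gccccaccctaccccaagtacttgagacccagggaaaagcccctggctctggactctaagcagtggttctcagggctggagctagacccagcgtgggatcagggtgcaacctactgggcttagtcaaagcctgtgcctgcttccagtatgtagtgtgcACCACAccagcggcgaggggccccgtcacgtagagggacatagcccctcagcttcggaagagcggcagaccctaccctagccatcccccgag
Fas: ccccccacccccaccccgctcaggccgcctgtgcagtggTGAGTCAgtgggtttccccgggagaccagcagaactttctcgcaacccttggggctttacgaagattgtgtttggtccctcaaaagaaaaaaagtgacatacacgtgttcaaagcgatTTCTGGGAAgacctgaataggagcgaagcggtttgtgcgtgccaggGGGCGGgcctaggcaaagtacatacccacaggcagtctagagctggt
The *Tnfrsf8* stretch held an NF-κB match beginning 168 bases before the start and an AP-1 match at 132, with a GC box just before the NF-κB match. The *Tnfrsf1b* stretch held a GAS match at 181 and GC boxes at 67 and 57. The *Tnfrsf25* stretch held a RUNX match at 92, and the *Fas* stretch held an AP-1 match at 211, a GAS match at 93, and a GC box at 47. No capitals overlapped another motif. Of 32851 upstream stretches of the same length, 3.9% held the NF-κB consensus, 6.75% AP-1, 14.05% RUNX, 7.02% GAS, and 32.7% the GC box. Of the 9 receptors with a promoter entry, *Tnfrsf14*, *Tnfrsf4*, and *Cd27* held none of the 5 motifs in these 250 bases. *Tnfrsf18*, which was not among the changed receptors, held a GAS match at 99, and *Tnfrsf9* held a GC box at 10. The matches are a description of the letters, and binding was not measured.

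The deletions were checked first. *Hdac1* fell from a mean of 78.1 to 8.30 FPKM (fragments per kilobase of transcript, scaled to library size) in HDAC1cKO-HDAC2HET cells and from 75.6 to 10.1 FPKM in HDAC1cKO cells (log2 fold changes of -3.24 and -2.91). *Hdac2* fell from 59.1 to 35.4 FPKM in the former, and in the latter the means were 72.4 and 80.4 FPKM (log2 fold change 0.16, adjusted p = 0.58, limma). Depth estimated from the confidence bounds of low genes was 22600000 to 53200000 fragments per sample. The defining T cell genes were abundant, with *Cd3e* at a mean of 199 and *Cd4* at 213 FPKM in 3-day WT cells, whereas the summed level of 4 B cell genes was at most 1.21 FPKM, that of 3 myeloid genes at most 0.377, and that of 2 NK cell genes at most 0.0155 in any sample. All 5 T cell genes were lower in HDAC1cKO-HDAC2HET cells, with summed levels of 947 to 1020 against 1220 to 1310 FPKM, and the same sum was 1170 to 1330 against 992 to 1320 FPKM in HDAC1cKO and WT restimulated cells. The summed level of 5 genes of activated T cells was 438 to 493 against 557 to 641 FPKM in the first experiment. In the second it was 494 to 546 against 534 to 734 FPKM. In the first, *Il2ra*, *Cd69*, and *Icos* were lower and *Cd44* was higher (limma), and *Mki67* did not pass. By the same rule 27.6% of all genes were lower and 24.2% higher. The summed level of 4 genes of regulatory T cells was 180 to 221 against 291 to 331 FPKM in the first experiment and 171 to 193 against 280 to 310 FPKM in the second, and *Foxp3* itself had a matched value in 1 of the 14 samples and was not tested. The 2 *Cd8* genes had sums of 11.7 to 15.2 FPKM in HDAC1cKO-HDAC2HET and 3.28 to 5.96 FPKM in WT cells. Most of this was *Cd8b1*, with means of 12.8 and 4.71 FPKM, whereas *Cd8a* was at 0.439 and 0.058 FPKM. Both were higher in the mutant cells (log2 fold changes of 1.455 and 1.758, adjusted p = 5.77e-04 and 1.85e-04, limma). The part of these marker levels in the results was not tested, and in bulk samples fewer cells of a type and less RNA per cell cannot be told apart.

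In the WT cells of the 3-day culture, the receptors covered a wide range of levels. *Tnfrsf4* was the highest with a mean of 538 ± 47.7 FPKM (SD, n = 4), followed by *Tnfrsf18* with 360 ± 45.7 and *Tnfrsf9* with 194 ± 32.2 FPKM. These 3 receptors, all induced by activation, made up 88.9% to 90.7% of the summed FPKM of the 10 genes in each WT sample. *Cd27* followed with 48.1 ± 4.22 FPKM, and *Tnfrsf1b* (25.8), *Tnfrsf14* (20.7), and *Fas* (18.5) formed a middle group in which the sample ranges of neighbours in the order overlapped. *Tnfrsf25* had a mean of 7.16 FPKM, and *Tnfrsf26* (1.97) and *Tnfrsf8* (1.18) were the lowest, again with overlapping ranges. FPKM is scaled to transcript length, so these levels can be set side by side between genes, with 1 limit. Reads shared with overlapping genes cannot be separated for *Tnfrsf9*, *Tnfrsf18*, *Cd27*, and *Fas*.

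In HDAC1cKO-HDAC2HET cells the 3 most abundant receptors and *Cd27* kept their places, whereas the order of the middle group was different. Below *Cd27* came *Fas* with 29.9 FPKM, *Tnfrsf25* with 19.3, *Tnfrsf14* with 10.6, and *Tnfrsf1b* with 9.39, and no neighbours in the whole order had overlapping sample ranges.

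**Figure D1:**
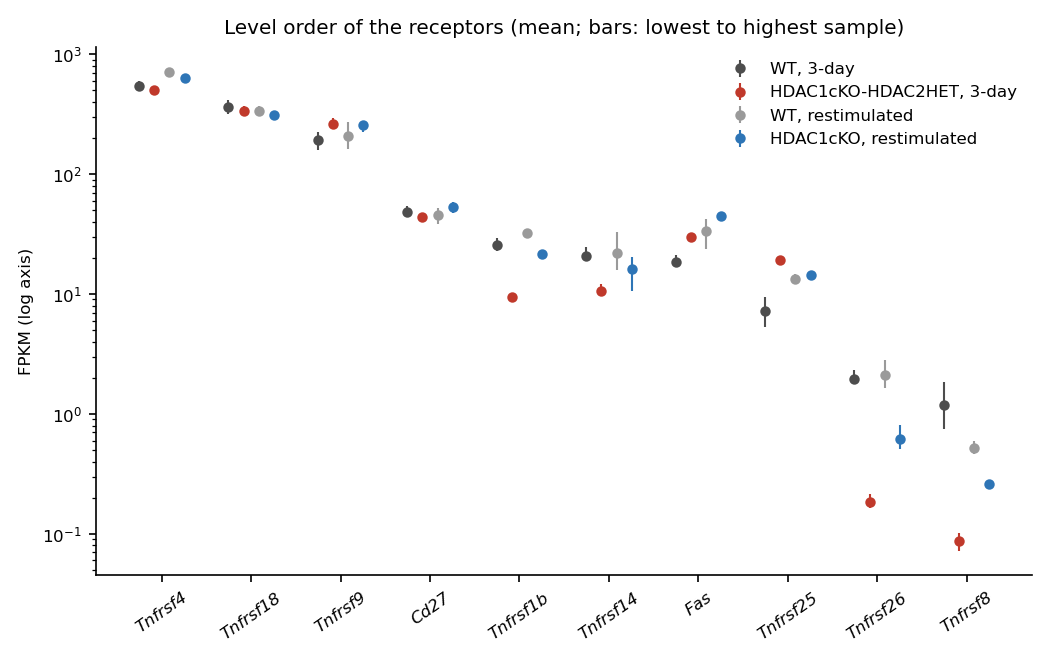
Mean FPKM of the 10 receptor genes on a log axis in the 4 groups, with bars from the lowest to the highest sample. The 3 most abundant genes lie close together in all groups, whereas *Tnfrsf26* and *Tnfrsf8* spread most, from 1.97 and 1.18 FPKM in 3-day WT cells to 0.185 and 0.0873 FPKM in HDAC1cKO-HDAC2HET cells.

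The comparison of HDAC1cKO-HDAC2HET with WT cells asked what the loss of HDAC1 together with 1 *Hdac2* allele did to these receptors. *Tnfrsf26*, *Tnfrsf8*, *Tnfrsf1b*, and *Tnfrsf14* fell, *Tnfrsf25*, *Fas*, and *Tnfrsf9* rose, and *Tnfrsf4*, *Tnfrsf18*, and *Cd27* did not pass the test. Genes were tested with limma on log2(FPKM + 0.1), a scale that understates the change of low genes, and called at an adjusted p of at most 0.05 over 15074 genes. By this rule 24.2% of all genes tested were higher and 27.6% were lower, so 3 receptors higher and 4 lower of 10 are counts near the background. At a change of at least 2-fold as well, 5.61% of all genes were higher and 5.57% lower, and of the 10 receptors *Tnfrsf25* was higher and *Tnfrsf26*, *Tnfrsf8*, and *Tnfrsf1b* were lower. The median log2 fold change was -0.12 for the 10 receptors and -0.04 for all genes.

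*Tnfrsf26* had values of 1.81, 2.33, 1.93, and 1.82 FPKM in the WT samples and 0.215, 0.167, 0.165, and 0.191 FPKM in the HDAC1cKO-HDAC2HET samples. All mutant samples were far below all WT samples, and the mean was 10.7 times lower (log2 fold change -2.86 ± 0.12 SE, adjusted p = 2.25e-06, limma). *Tnfrsf8*, whose product CD30 marks activated and memory T cells, had values of 1.83, 0.752, 1.26, and 0.867 FPKM in WT and 0.0854, 0.101, 0.0713, and 0.0914 FPKM in mutant samples. The WT samples differed among themselves more, relative to their mean, than for the other 3 receptors that fell, but the lowest was still well above the highest mutant sample, and the mean was 13.5 times lower (log2 fold change -2.70 ± 0.26, adjusted p = 8.42e-05, limma). Both genes are at the low end of the data. The deposited bounds correspond to between 122 and 232 fragments for *Tnfrsf8* in the WT samples and between 6 and 18 in the mutant samples, and for *Tnfrsf26* to 200 to 314 and 11 to 32 fragments, so the mutant values carry a large counting error. With a pseudocount of 1 the log2 fold changes were -1.32 for *Tnfrsf26* and -0.98 for *Tnfrsf8*.

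*Tnfrsf1b*, which encodes the TNF receptor that promotes T cell proliferation, was measured at 29.2, 22.8, 26.7, and 24.4 FPKM in WT and at 9.39, 9.77, 9.25, and 9.16 FPKM in mutant samples. The mutant mean was 9.39 ± 0.269 FPKM (SD, n = 4), all mutant samples were below all WT samples, and the fall was 2.74-fold (log2 fold change -1.44 ± 0.07, adjusted p = 4.90e-06, limma). *Tnfrsf14*, encoding HVEM, the receptor for LIGHT and BTLA, was measured at 19.0, 19.9, 24.6, and 19.1 FPKM in WT and at 10.5, 9.84, 12.1, and 10.1 FPKM in mutant samples. The groups did not overlap, and the mean fell 1.95-fold (log2 fold change -0.95 ± 0.10, adjusted p = 1.35e-04, limma). The assembled *Tnfrsf14* locus had 6 different spans in these 8 files, from 5.99 to 6.15 kb.

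The rises were led by *Tnfrsf25*, the receptor for TL1A. Its values were 5.28, 9.36, 6.55, and 7.47 FPKM in WT and 20.1, 19.4, 17.5, and 20.1 FPKM in mutant samples. The lowest mutant sample was well above the highest WT sample, and the rise was 2.69-fold (log2 fold change 1.44 ± 0.16, adjusted p = 1.68e-04, limma). *Fas*, the death receptor for FasL, was measured at 21.0, 18.9, 17.1, and 17.1 FPKM in WT and at 29.0, 31.0, 29.6, and 29.9 FPKM in mutant samples. These groups also did not overlap, and the rise was 1.61-fold (log2 fold change 0.69 ± 0.07, adjusted p = 9.38e-05, limma). *Tnfrsf9* had values of 226, 159, 216, and 175 FPKM in WT and 293, 269, 238, and 247 FPKM in mutant samples. The highest WT sample lay just under the lowest mutant sample, and the log2 fold change was 0.44 ± 0.13 (adjusted p = 0.0184, limma), but without WT replicate 4 it was 0.40 with an adjusted p of 0.051. For each of the 7 receptors called, the 2-sided exact permutation test over 4 against 4 samples gave p = 0.0286, the smallest value it allows. Of all genes tested, 23.4% were higher and 26.9% lower in the mutant without overlap of the groups, so the 3 and 4 of 10 receptors are again near the background.

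**Figure D2:**
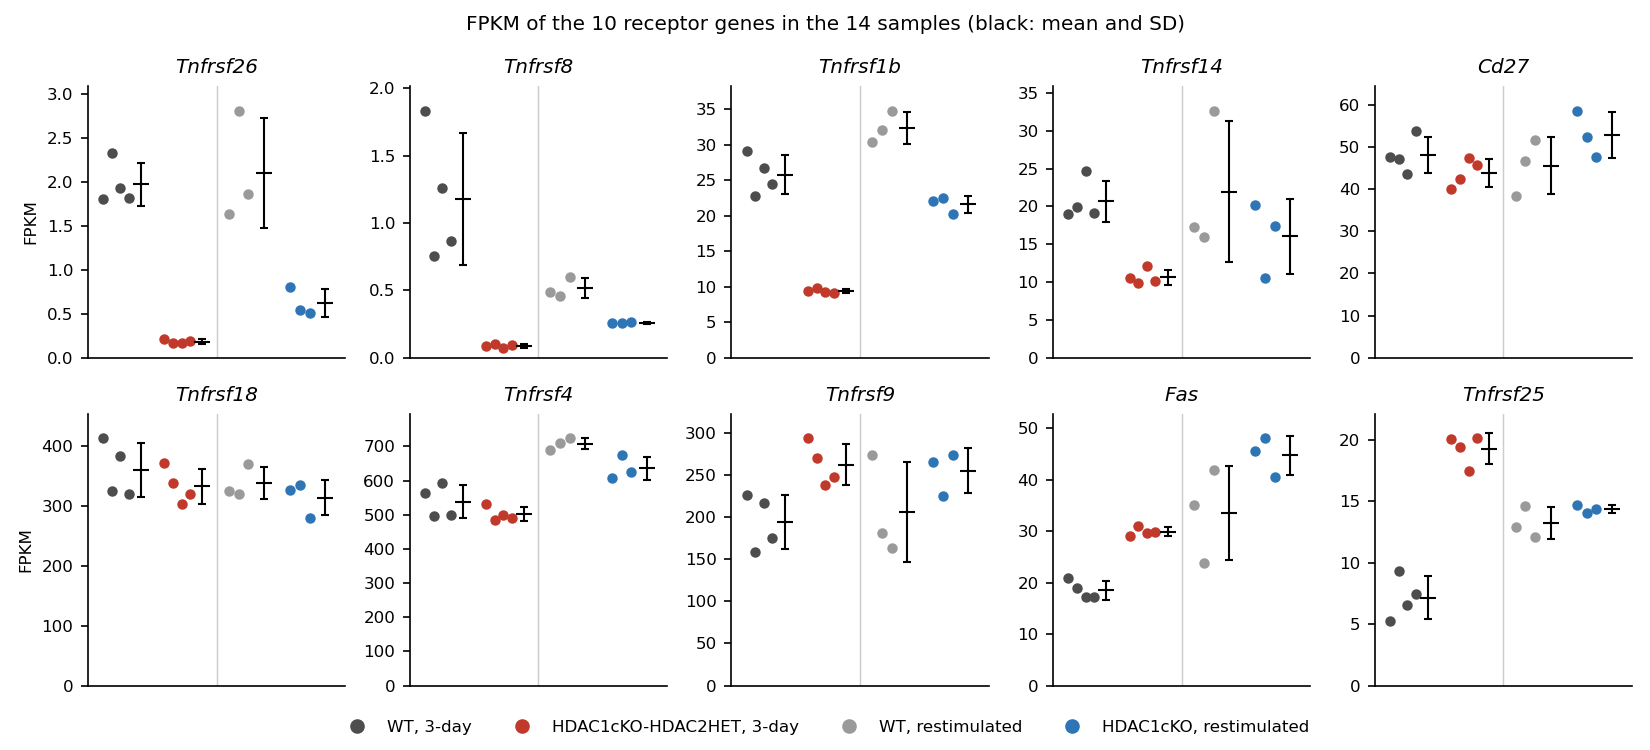
FPKM of each receptor gene in every sample, on linear axes that start at 0, with the mean and SD in black beside the points of each group; the grey line separates the experiments. The 4 HDAC1cKO-HDAC2HET samples lie below all 4 WT samples for *Tnfrsf26*, *Tnfrsf8*, *Tnfrsf1b*, and *Tnfrsf14* and above them for *Tnfrsf9*, *Fas*, and *Tnfrsf25*.

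*Tnfrsf4*, *Tnfrsf18*, and *Cd27* did not pass the test, and the intervals bound how far they could have moved. *Tnfrsf4* was measured at 562, 496, 593, and 500 FPKM in WT and at 531, 485, 500, and 489 FPKM in mutant samples, and the 95% interval of the ratio of mutant to WT was 0.839 to 1.04. *Tnfrsf18* was measured at 412, 324, 384, and 319 FPKM in WT and at 371, 337, 302, and 320 FPKM in mutant samples, with an interval of 0.788 to 1.09. *Cd27* was measured at 47.7, 47.2, 43.5, and 53.7 FPKM in WT and at 40.0, 42.3, 47.3, and 45.8 FPKM in mutant samples, with an interval of 0.808 to 1.03. In all 3 cases the groups overlapped and the adjusted p-values were 0.261, 0.404, and 0.192 (limma).

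The HDAC1cKO comparison asked the same question with both *Hdac2* alleles intact, in restimulated cells. No receptor passed the adjusted threshold in limma over 13885 genes, and 0.072% of all genes tested did so in either direction. At an unadjusted p under 0.05, *Tnfrsf1b*, *Tnfrsf26*, and *Tnfrsf8* were lower and none higher, whereas 7.77% of all genes were lower and 6.58% higher by this rule. The groups did not overlap for *Tnfrsf26*, *Tnfrsf8*, *Tnfrsf1b*, and *Tnfrsf4*, all lower in HDAC1cKO cells, while 12.3% of all genes were lower and 9.97% higher without overlap. An exact permutation test of 3 against 3 samples cannot go below p = 0.1, which these 4 genes reached.

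*Tnfrsf26* was measured at 1.64, 2.81, and 1.86 FPKM in WT and at 0.803, 0.544, and 0.514 FPKM in HDAC1cKO samples. The means differed 3.39-fold, and on the log2 scale the change was -1.60 ± 0.28 with a 95% interval of -2.28 to -0.91 (adjusted p = 0.147, limma). *Tnfrsf1b* was measured at 30.4, 32.0, and 34.8 FPKM in WT and at 22.1, 22.5, and 20.2 FPKM in HDAC1cKO samples, and its log2 fold change was -0.58 ± 0.08 (adjusted p = 0.117, limma). *Tnfrsf8* was measured at 0.486, 0.460, and 0.599 FPKM in WT and at 0.256, 0.256, and 0.264 FPKM in HDAC1cKO samples, from 56 to 61 and 31 to 40 fragments, and its log2 fold change was -0.77 ± 0.23 (adjusted p = 0.245, limma). In all 3 genes every HDAC1cKO sample was below every WT sample. When both experiments shared 1 estimate of the spread, *Tnfrsf26* and *Tnfrsf1b* passed with adjusted p-values of 0.00133 and 0.00221 (limma). The share of all genes that passed in that joint fit is not given here, so these calls cannot be set against a background.

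The other 7 receptors did not reach an unadjusted p of 0.05. *Fas* was measured at 35.1, 23.8, and 41.9 FPKM in WT and at 45.7, 48.0, and 40.6 FPKM in HDAC1cKO samples, and *Tnfrsf14* at 17.2, 15.9, and 32.7 FPKM in WT and at 20.2, 10.6, and 17.4 FPKM in HDAC1cKO samples. Both genes overlapped between groups, and the 6 *Tnfrsf14* loci all had different spans, from 6.47 to 7.93 kb. *Tnfrsf25* was measured at 12.9, 14.6, and 12.1 FPKM in WT and at 14.7, 14.04, and 14.4 FPKM in HDAC1cKO samples, an interval of the ratio of 0.927 to 1.28 that does not include the 2.69-fold rise of the first experiment. *Tnfrsf4* was measured at 690, 710, and 723 FPKM in WT and at 607, 674, and 624 FPKM in HDAC1cKO samples, with an interval of the ratio of 0.779 to 1.03. For *Tnfrsf9*, *Tnfrsf18*, and *Cd27* the intervals were 0.89 to 1.80, 0.777 to 1.11, and 0.926 to 1.47. The X-inactivation transcript *Xist* was at 42.9 and 33.2 FPKM in WT replicates 1 and 3 and at most 0.0435 FPKM in WT replicate 2 and all HDAC1cKO samples, so sex was unbalanced between these groups. When sex was added to the fit, where WT replicate 2 then stood alone for the WT samples without *Xist*, the log2 fold changes were -2.04 for *Tnfrsf26*, -0.57 for *Tnfrsf1b*, and -0.64 for *Tnfrsf8*. In the first experiment *Xist* was at 58.9 to 65.2 FPKM in WT and at 26.0 to 33.7 FPKM in HDAC1cKO-HDAC2HET samples, without overlap (log2 fold change -1.07 ± 0.09, adjusted p = 3.99e-05, limma), and the part of this in the other results was not tested.

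**Figure D3:**
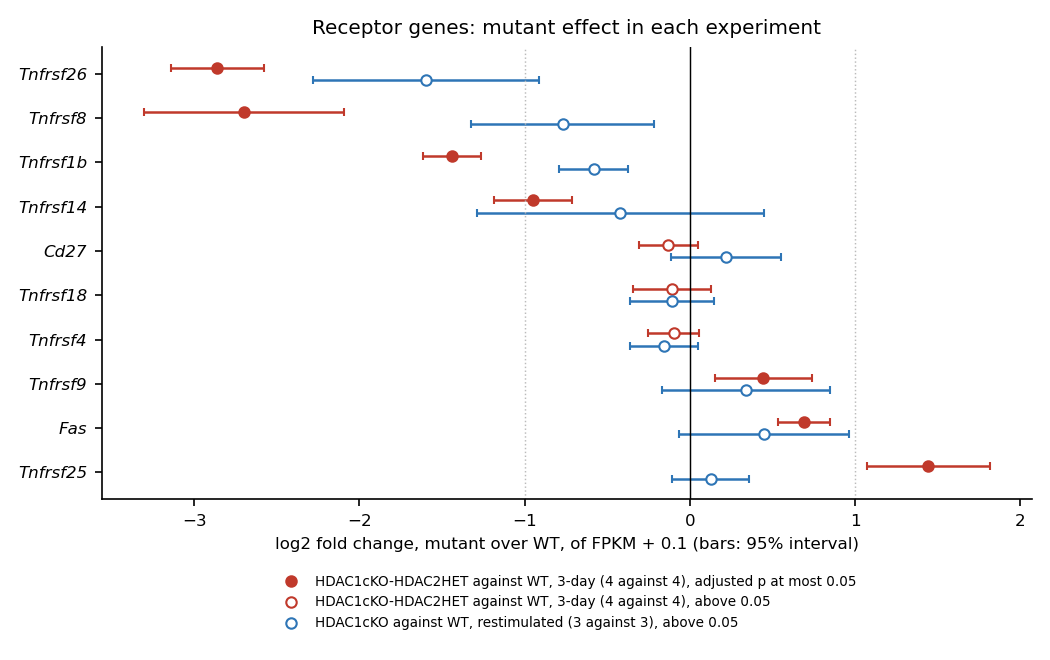
Log2 fold change of each receptor gene, mutant over WT, with its 95% interval, in the 3-day experiment (red) and the restimulated experiment (blue); filled points have an adjusted p of at most 0.05, and dotted lines mark 2-fold changes. *Tnfrsf26*, *Tnfrsf8*, and *Tnfrsf1b* lie to the left of 0 in both experiments, whereas *Tnfrsf25* is at 1.44 in the first and 0.12 in the second.

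Whether the mutant effect itself differed between the experiments was tested in 1 model of the 14 samples. *Tnfrsf8*, *Tnfrsf26*, and *Tnfrsf1b* fell more and *Tnfrsf25* rose more in HDAC1cKO-HDAC2HET cells than in HDAC1cKO cells, each relative to its own WT. The differences were -1.93 ± 0.34 for *Tnfrsf8* (adjusted p = 0.00331), -1.26 ± 0.28 for *Tnfrsf26* (adjusted p = 0.0102), -0.86 ± 0.11 for *Tnfrsf1b* (adjusted p = 5.25e-04), and 1.32 ± 0.21 for *Tnfrsf25* (adjusted p = 0.00166), on the log2 scale with limma. Of the 13418 genes tested, 6.92% had a difference below 0 and 7.72% above 0 at this threshold. The call for *Tnfrsf26* was lost with a pseudocount of 1 (adjusted p = 0.131), with sex as a covariate (adjusted p = 0.0954), and with the replicate number as a block (adjusted p = 0.0599, limma). For *Tnfrsf14* and *Fas* the differences were -0.53 and 0.24 with 95% intervals of -1.30 to 0.24 and -0.22 to 0.70, so a difference between the experiments was not detectable for either. Genotype, restimulation, and experiment all differ between the 2 mutant groups and cannot be told apart.

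The WT cells of both cultures were compared to see how the receptors stood without any deletion. *Tnfrsf25*, *Fas*, *Tnfrsf4*, and *Tnfrsf1b* were higher and *Tnfrsf8* was lower in restimulated than in 3-day WT cells, and 22.1% of all 13559 genes tested were higher and 11.1% lower by the same rule. None of the 10 receptors also changed 2-fold, as 11.2% of all genes did in either direction. *Tnfrsf25* rose from a mean of 7.16 to 13.2 FPKM (log2 fold change 0.90 ± 0.19, adjusted p = 0.0122, limma), and *Fas* from 18.5 to 33.6 FPKM (0.82 ± 0.19, adjusted p = 0.0176, limma). *Tnfrsf4* rose from 538 to 708 FPKM (0.40 ± 0.08, adjusted p = 0.00868, limma). Its deposited bounds, read as 2 SD of a count, would give 16470 to 23640 fragments in the 3-day WT samples. In the restimulated WT samples they would give 2048 to 2114. That reading was checked only on low single-transcript genes, and *Tnfrsf4* has 3 transcripts, so these numbers are not shown to be fragment counts. Estimated depth covered a narrower range, 22600000 to 53200000 fragments over all samples. The part of the wider bounds of the restimulated samples in the rise of *Tnfrsf4* between cultures was not tested. *Tnfrsf1b* rose from 25.8 to 32.4 FPKM (0.33 ± 0.10, adjusted p = 0.0365, limma), and *Tnfrsf8* fell from 1.18 to 0.515 FPKM (-0.99 ± 0.30, adjusted p = 0.0459, limma). The samples of the 2 cultures did not overlap for any of these 5 genes, and of all genes tested 28.5% were higher and 14.9% lower in restimulated cells without overlap. The last 2 calls were weak, since that of *Tnfrsf8* was lost when any of 6 of the 7 samples was left out and that of *Tnfrsf1b* when any of 5 was. *Tnfrsf18*, *Cd27*, *Tnfrsf26*, *Tnfrsf9*, and *Tnfrsf14* did not pass, with log2 fold changes between -0.09 and 0.06. All genes together had a median log2 shift of 0.11 in this comparison, which median-of-ratios scaling moved to -0.01, with 2083 genes higher and 2277 lower against 2991 and 1505 without it. The *Tnfrsf9* locus was 25.9 kb long in the files of the first experiment and 31.5 to 31.6 kb in those of the second, which can shift its level between cultures. *Xist* was at 58.9 to 65.2 FPKM in the 3-day WT samples and at 0.0188 FPKM in restimulated WT replicate 2, so sex was also unbalanced here. No fit of this comparison included sex. Culture and experiment cannot be told apart.

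The ligands and partner molecules of these receptors were examined as a list of 13 genes and compared between HDAC1cKO-HDAC2HET and WT cells. Of 11 tested, 6 were lower and 3 higher, against 27.6% lower and 24.2% higher of all genes. All 6 that were lower fell at least 2-fold, as 5.57% of all genes did, with a median log2 fold change of -1.46 for the list and -0.04 for all genes. *Tnfsf9* (4-1BB ligand) fell from 12.4 to 1.93 FPKM, *Tnfsf4* (OX40 ligand) from 27.4 to 6.56, and *Tnfsf8* (CD30 ligand) from 62.0 to 16.5 FPKM. *Tnfsf14*, which encodes LIGHT, fell from 19.4 to 4.90 FPKM, and *Btla*, the inhibitory partner of HVEM, from 135 to 36.3 FPKM. *Cd70*, the CD27 ligand, fell from 4.01 to 1.42 FPKM. Their log2 fold changes were -2.62, -2.03, -1.91, -1.96, -1.90, and -1.46, with adjusted p-values between 1.85e-06 and 0.00738 (limma). *Fasl*, the ligand of *Fas*, rose from 6.00 to 14.2 FPKM (log2 fold change 1.22 ± 0.11, adjusted p = 5.99e-05, limma). *Lta* and *Ltb*, among the 3 most abundant of the list, rose from 84.2 to 112 and from 174 to 228 FPKM, and *Tnf* was at 41.8 and 42.4 FPKM.

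Receptor and ligand moved the same way for some pairs and not for others. Both fell for CD30 and its ligand and for HVEM and its partners LIGHT and BTLA, whereas *Cd160*, a further partner of HVEM, was at 8.42 and 7.64 FPKM in WT and mutant cells and did not pass the test (adjusted p = 0.204, limma). Both rose for *Fas* and *Fasl*. TNFR2 fell while its ligand gene *Lta* rose (adjusted p = 0.044, limma) and *Tnf* did not pass the test (adjusted p = 0.899, limma). The ligands of OX40 and CD27 fell while their receptors did not pass the test, and the 4-1BB ligand fell while *Tnfrsf9* rose. In HDAC1cKO cells none of 10 ligands or partners tested passed the adjusted threshold with limma, as 0.072% of all genes did. The list median was -0.34, against -0.03 for all genes. At an unadjusted p under 0.05, 2 were higher and 3 were lower, against 6.58% and 7.77% of all genes. The 3 lower had means in WT and HDAC1cKO cells of 125 and 54.6 FPKM for *Tnfsf8*, 17.9 and 10.03 for *Tnfsf14*, and 113 and 90.4 for *Btla*. Their adjusted p-values were 0.232, 0.16, and 0.168 (limma). The 2 higher were *Tnf*, with means of 42.0 and 73.65 FPKM, and *Fasl*, with 13.7 and 17.55 FPKM (adjusted p = 0.256 and 0.197, limma). In WT cells of the restimulated culture *Cd70* was 7.19 times and *Fasl* 2.28 times as high as in the 3-day culture, and 4 of 10 tested were higher and 1 lower, against 22.1% and 11.1% of all genes.

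Among 18 other receptors of the family, 13 were tested in the first experiment, and 5 were higher and 4 lower in HDAC1cKO-HDAC2HET cells, against 24.2% and 27.6% of all genes. *Tnfrsf12a*, the TWEAK receptor, rose from 1.19 to 3.27 FPKM (log2 fold change 1.39). *Tnfrsf21* (DR6) fell from 1.71 to 0.752 FPKM, and *Tnfrsf13b* (TACI), which binds BAFF and APRIL, fell from 17.8 to 8.38 FPKM. *Tnfrsf13c*, the BAFF receptor, rose from 8.34 to 15.9 FPKM, and *Tnfrsf10b*, a TRAIL receptor, was at 9.73 and 10.2 FPKM. The list median was 0.06. None of 14 passed in HDAC1cKO cells with limma. At an unadjusted p under 0.05, 1 was lower and none higher, against 7.77% and 6.58% of all genes. In the comparison of WT cells 8 of 13 were higher and none lower in restimulated cells, against 22.1% and 11.1% of all genes. The list median was 0.89 against 0.11 for all genes. *Ltbr*, *Cd40*, *Tnfrsf13c*, and *Tnfrsf22* were higher at least 2-fold, as were 1021 of all 13559 genes tested. *Ltbr* was near the pseudocount of 0.1, at means of 0.068 and 0.256 FPKM. *Cd40* had means of 0.222 and 2.97 FPKM, and its restimulated WT samples ranged from 0.430 to 4.96 FPKM. The means were 8.34 and 18.2 FPKM for *Tnfrsf13c* and 3.58 and 9.01 for *Tnfrsf22*.

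Downstream of the receptors, 14 adaptors and regulators were all tested, and 7 were lower and 3 higher in HDAC1cKO-HDAC2HET cells, against 27.6% and 24.2% of all genes. Only *Cflar*, which encodes the caspase-8 inhibitor c-FLIP, changed 2-fold among these 14, from 20.4 to 7.25 FPKM (log2 fold change -1.45 ± 0.16, adjusted p = 1.48e-04, limma). The TRAF adaptors *Traf2*, *Traf3*, and *Traf6* and the ubiquitin ligases *Birc2* and *Birc3* fell by 0.54 to 0.80 on the log2 scale. The 3 most abundant of the list, *Siva1*, *Traf1*, and *Casp8*, were at 76.0, 50.2, and 61.7 FPKM in WT and at 88.0, 46.1, and 58.0 FPKM in mutant cells, and of these *Siva1* passed the test. Of 12 NF-κB genes tested, 4 were higher and 5 lower, against 24.2% and 27.6% of all genes, with a median of -0.07, and *Nfkbib*, an inhibitor of NF-κB, rose 2.03-fold. *Nfkb1* and *Nfkbia* were at 208 and 135 FPKM in WT and at 244 and 103 FPKM in mutant cells, and both passed the test. In HDAC1cKO cells none of the 14 adaptors and none of the 12 NF-κB genes passed with limma. At an unadjusted p under 0.05, 1 adaptor was higher and 1 lower, and 1 NF-κB gene was lower. By this rule 6.58% of all genes were higher and 7.77% lower.

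**Figure D4:**
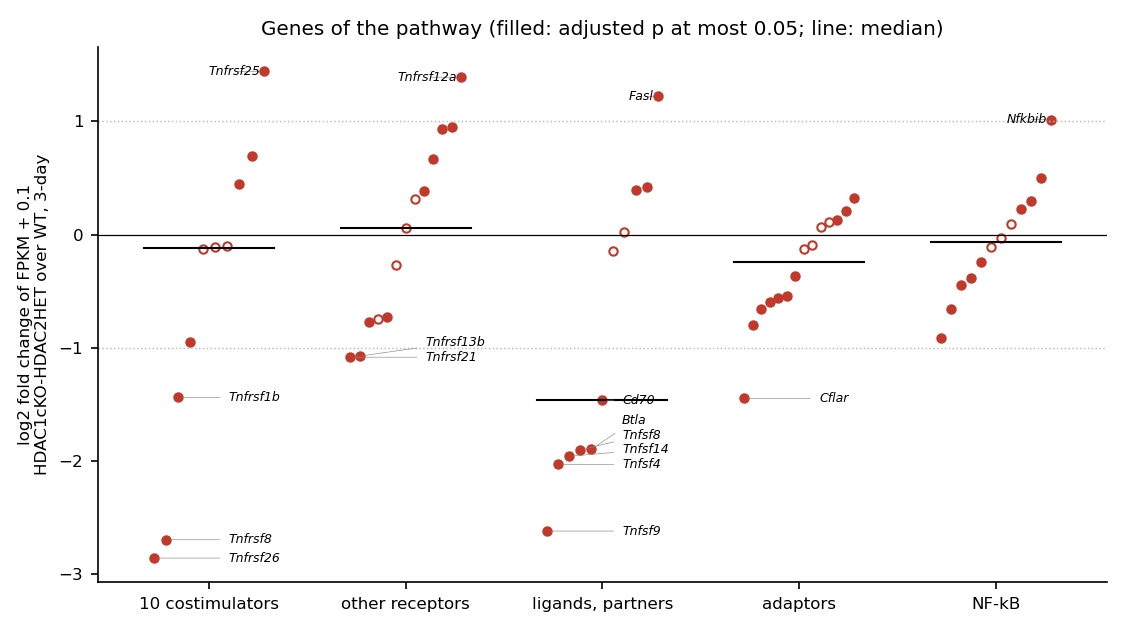
Log2 fold change in HDAC1cKO-HDAC2HET over WT cells of the genes tested in each of 5 lists, sorted within a list; filled points have an adjusted p of at most 0.05, the black line is the list median, and genes past both thresholds are named. The ligands and partners have the lowest median, -1.46, and the medians of the other lists lie between -0.25 and 0.06.

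As a description of similarity, the genes whose log2(FPKM + 0.1) followed each receptor most closely over the 14 samples were looked up among 8983 protein-coding genes with a mean of at least 1 FPKM. The samples share genotype, culture, and experiment, which set much of any correlation. *Tnfrsf1b* was most like *Hsdl1* and *Gna12* (Pearson's r of 0.986 and 0.985), and *Tnfrsf26* most like *Kansl1* and *Evi2* (both 0.985). *Tnfrsf8* was most like *4930452B06Rik* and *Cd2ap* (0.970 and 0.968), *Fas* most like *Serpinb9* and *B4galt5* (0.967 and 0.965), and *Tnfrsf25* most like *Tubb6* and *Unc45a* (0.940 and 0.938). *Tnfrsf4* was most like *Rpl5* and *Dhrs7* (0.964 and 0.957), *Tnfrsf9* most like *Anxa2* and *Slc6a9* (0.937 and 0.897), and *Tnfrsf14* most like *Tep1* and *Bbc3* (0.923 and 0.912). *Cd27*, with *Trmt12* and *Nt5c2* (0.885 and 0.863), and *Tnfrsf18*, with *Pot1b* and *Tmem205* (0.869 and 0.792), had the weakest partners.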

How the data were processed

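RNA-Seq was done on 14 samples in 4 groups, taken from the sample labels, and the culture steps were taken from the study's text, the restimulation from a figure legend. Per the study's methods, the authors mapped each library to mm10 with TopHat and estimated FPKM with Cufflinks, and the deposited files are Cufflinks gene tables with FPKM and its 95% bounds per library; the submitters' processing notes list STAR 2.5.2b and Subread 1.5.1 instead, and no counts were used here. FPKM is scaled to library size and transcript length by the authors. Assembly per library leaves many genes as unnamed loci, each of which was assigned to a gene if it shared at least 0.8 of the joint span with the gene or a transcript in GENCODE M21. Of the 140 values of the receptors, 25 came from named rows and 115 from matched loci. Reads shared with overlapping genes cannot be separated, which concerns *Tnfrsf9*, *Tnfrsf18*, *Cd27*, and *Fas*.

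Each comparison was fitted on log2(FPKM + 0.1) by limma 3.58.1 (R 4.3.3) with a variance trend, over genes with a mean of at least 0.1 FPKM in its samples, and p-values were Benjamini-Hochberg adjusted over all of them. The contrast of the mutant effects used all 14 samples. Exact permutation tests were 2-sided. Errors after ± are SD for FPKM and SE for log2 fold changes. Fragment numbers behind a value were derived from its bounds, read as 2 SD of a count, and 77.8% to 83.4% of low single-transcript genes gave a whole number within 0.05. All 10 receptors have more than a single transcript, so this reading was not checked on them. Fragment numbers and the intervals cover counting or replicate error in these samples only. The labels do not say that samples of a group are separate animals, so p-values measure the spread between samples. Upstream sequences came from RefSeq (GRCm38.p6) for 9 of the 10 receptors, and motifs were searched on both strands.

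The 10 receptors, the gene lists, and the tests were chosen with earlier results of these data known. All 10 receptors are named, and of each list the genes past both thresholds and the 3 most abundant. The alternatives changed the pseudocount, filter, scaling, variance trend, sample weights, shared span, gene types, sex, replicate block, joint fit, and each sample in turn. Same-numbered samples did not deviate together, with correlations between -0.03 and 0.07. Drawing used matplotlib 3.10.9.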

Additional observations from a re-analysis of the deposited data

Results flagged for a closer look

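In 1 of 20 sets of 4 values, *Tnfrsf14* in WT cells of the 3-day culture, a sample lay apart from the others at 24.6 FPKM, and chance flags about 1 in 20 such sets. For 4 receptors the mutant effect differed between the experiments in the contrast over all samples (limma), by -1.93 for *Tnfrsf8*, -1.26 for *Tnfrsf26*, -0.86 for *Tnfrsf1b*, and 1.32 for *Tnfrsf25* on the log2 scale. All 10 receptors were tested, and of all 13418 genes tested 7.72% were above 0 and 6.92% below 0 at this threshold. The same contrast differed from 0 for 3 of 13 other receptors tested, with 1.01 for *Tnfrsf12a*, -0.53 for *Tnfrsf13b*, and -0.66 for *Tnfrsf22*. Among 9 ligands and partners tested, those that passed were *Tnfsf4* with -1.70, *Tnfsf9* with -1.94, *Tnfsf14* with -1.14, *Btla* with -1.57, and *Fasl* with 0.87. Among 14 adaptors tested they were *Traf2* with -0.70, *Traf3* with -0.43, *Birc3* with -0.70, *Map3k14* with 0.23, and *Cflar* with -1.02. Of 12 NF-κB genes tested, *Rela* passed with -0.54.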

How the results depend on the processing

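Over all alternatives to the reported fits, 736 values of single receptors kept their direction and their side of the threshold, 21 lost a call, 3 gained one, and 26 changed sign. In HDAC1cKO-HDAC2HET cells 6 or 7 receptors were called under every alternative that was run, and none of the 10 changed direction; *Tnfrsf8* was not tested where a mean of at least 1 FPKM was required. The fit of both experiments together called 2 receptors in HDAC1cKO cells, 1 of them at 2-fold, against none. The share of all genes called by that fit is not given here. In the comparison of WT cells, sample weights called 3 receptors against 5, leaving out samples 3 to 4, and at 2-fold 1 was called with a pseudocount of 0.01, 1 with median-of-ratios scaling, and 0 to 2 with a sample left out. For the difference of the effects, 1 receptor was called at 2-fold with a pseudocount of 1, against 3.

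Changes of sign concerned values that were not called. With sex as a covariate *Tnfrsf25* was -0.025 in HDAC1cKO cells, and the difference of the effects was -0.04 for *Tnfrsf9* and -0.21 for *Fas*. With scaling, *Tnfrsf9* was -0.06, *Tnfrsf14* -0.11, and *Tnfrsf26* -0.059 between WT cultures, and *Tnfrsf18* was 0.006 in the difference. With sample weights *Tnfrsf9* was -0.081 between WT cultures and -0.072 in the difference, and *Tnfrsf18* was 0.057. Leaving out samples gave -0.16 to 0.21 (*Tnfrsf9*), -0.31 to 0.21 (*Tnfrsf14*), -0.16 to 0.21 (*Tnfrsf26*), and -0.18 to 0.034 (*Cd27*) between WT cultures, and -0.12 to 0.26 (*Tnfrsf9*) and -0.079 to 0.068 (*Tnfrsf18*) in the difference. Without WT restimulated replicate 2 the difference for *Fas* was 0.47 and passed (adjusted p = 0.0369, limma). The cause was not tested. The sex covariate could not be fitted in the first experiment, where *Xist* was at 26.0 FPKM or more in every sample. It was not fitted between the WT cultures.

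With the replicate number as a block, 7, 0, and 3 receptors were called in HDAC1cKO-HDAC2HET cells, in HDAC1cKO cells, and for the difference, where *Tnfrsf26* no longer passed (adjusted p = 0.0599, limma). The numbers were not found to pair the samples. Low fragment numbers limit *Tnfrsf8* and *Tnfrsf26* in the mutant samples, and 3 samples a group limit the second experiment.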
